A study of Mus musculus with 74 samples.

Results

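H3K9me3 that cumulus cells carried, that was under the marking threshold in cleavage-stage cloned embryos (somatic cell nuclear transfer, SCNT) and in fertilized zygotes, and that was present again in both lineages of the SCNT blastocyst was traced in 1-kb windows of the autosomes. A window was called marked in a list when H3K9me3 peaks covered at least 500 of its 1000 bp. The windows described here, termed returning windows, were marked in cumulus cells (CC), in the inner cell mass (ICM) and in the trophectoderm (TE), and were unmarked at 6 h post activation (6 hpa), in the 2-cell, 4-cell and 8-cell embryo and in fertilized zygotes at pronuclear stage 5 (PN5). There were 7228 of them among 2462755 autosomal windows, which is 0.293%. They made up 13.2% of the 54827 windows marked in CC, ICM and TE together. The 14 hpa and morula lists took no part in the choice, but they neighbour lists that did.

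Peak lists were made from 74 libraries (41 H3K9me3 precipitates, 33 inputs) by ultra-low-input native ChIP-seq, in which uncrosslinked chromatin is digested by micrococcal nuclease before precipitation. The groups behind the lists were cumulus cells of B6D2F1 females, which surround the oocyte and gave the donor nuclei (4 precipitates), SCNT embryos from enucleated B6D2F1 oocytes activated with strontium chloride at 6 hpa (5), 14 hpa (4), 2-cell (6), 4-cell (3), 8-cell (7) and morula (6), the micromanipulated ICM and TE of SCNT blastocysts (2 each), and fertilized C57BL/6 PN5 zygotes (2). According to the study the PN5 data came from an earlier publication, so strain, embryo type and study cannot be told apart there. Replicates were pooled before peaks were called, so each stage gave 1 list with no replicate error, no comparison below has a test across samples, and in an unmarked window H3K9me3 was not detectable above the peak threshold, which does not show its absence. The lists covered between 123 Mb (2-cell) and 212 Mb (CC) of the autosomes.

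H3K9me3 is the trimethylation of lysine 9 on histone H3. It is laid down by SUV39H and SETDB1 methyltransferases, is bound by HP1 proteins and marks heterochromatin, in which retrotransposons, satellite repeats and gene families are kept silent. SETDB1 is brought to particular sequences by KRAB zinc finger proteins through the co-repressor TRIM28. KRAB zinc finger genes lie in clusters, and in many somatic cells their own 3′ exons carry H3K9me3.

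The sequence that recurred most often in the returning windows was a dispersed repeat. Stretches of 14 bases found in at least 10% of the returning windows, and at least 10 times as often there as in all windows, numbered 596, and they joined by overlap into 29 chains. A window with at least 20 of them was called repeat-bearing. The stretches below, from returning windows that held 525 and 520 of the shared 14-base sequences, are shown because they carry this repeat; capitals mark bases that lie in a shared 14-base sequence, and the build is mm10.
Returning window on chromosome 6, chr6:23065084-23065323, minus strand: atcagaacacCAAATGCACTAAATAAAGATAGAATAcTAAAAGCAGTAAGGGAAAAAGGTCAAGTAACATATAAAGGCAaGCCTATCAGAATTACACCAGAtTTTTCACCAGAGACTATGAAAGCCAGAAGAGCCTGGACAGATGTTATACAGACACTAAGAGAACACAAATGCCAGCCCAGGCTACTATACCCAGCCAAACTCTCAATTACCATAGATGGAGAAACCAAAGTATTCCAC
Returning window on chromosome 5, chr5:94231589-94231828, plus strand: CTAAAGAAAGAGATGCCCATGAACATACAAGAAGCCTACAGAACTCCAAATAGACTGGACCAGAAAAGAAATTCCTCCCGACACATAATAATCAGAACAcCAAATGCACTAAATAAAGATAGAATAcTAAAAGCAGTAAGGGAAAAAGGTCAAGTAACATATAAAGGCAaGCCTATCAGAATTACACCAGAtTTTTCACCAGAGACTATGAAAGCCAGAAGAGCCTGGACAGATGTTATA
Peaks covered the window of the first stretch over 1000 bp in CC, 1000 bp in ICM and 695 bp in TE, over 222 bp at 6 hpa and 1000 bp at 14 hpa, over 383 bp in 2-cell, 335 bp in 4-cell and 33 bp in 8-cell embryos, and over 0 bp in morulae and PN5. The second window had 696 bp in CC, 1000 bp in ICM and 722 bp in TE, 1000 bp at 14 hpa, 9 bp in both 2-cell and 4-cell embryos and 0 bp in the other 4 lists. Both were thus marked at 14 hpa and at 0 bp in the morula, where 67.8% of all repeat-bearing returning windows were marked. Over the 150 bases that both stretches cover, they agreed at 150 positions. A further returning window at chr2:137368143-137368382 was identical to the first at 240 of 240 positions. These windows are rich in the shared 14-base sequences and are shown for that, so close agreement between them was largely fixed by the pick. In the direction printed, 1 of the 3 reading frames of each stretch had no stop codon. These letters read as part of the first open reading frame of the LINE-1 retrotransposon, a name that rests on general knowledge, because the annotation used here names no repeat family.

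A second recurring sequence was the linker between the fingers of C2H2 zinc finger proteins. The 14 bases found in the last exons of the most Zfp genes of the annotation, ACTGGAGAGAAACC in 98 of them, encode part of this linker and were searched on both strands. The stretches below come from the returning windows in a last exon with the most matches in 1 window, 7 in Zfp932 and 6 in Zfp937, and lie inside the annotated coding sequence. Capitals mark the linker.
Zfp932, chr5:110009001-110009180, plus strand: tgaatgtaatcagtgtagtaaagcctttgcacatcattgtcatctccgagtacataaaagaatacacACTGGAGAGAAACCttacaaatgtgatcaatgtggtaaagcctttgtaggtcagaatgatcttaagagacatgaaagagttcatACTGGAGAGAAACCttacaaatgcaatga
Zfp937, chr2:150238679-150238858, plus strand: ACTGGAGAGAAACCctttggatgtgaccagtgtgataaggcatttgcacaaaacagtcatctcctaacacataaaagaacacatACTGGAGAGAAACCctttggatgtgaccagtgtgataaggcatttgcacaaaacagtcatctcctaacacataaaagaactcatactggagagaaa
The Zfp932 window was fully covered in CC, ICM and TE and at 0 bp in the other 7 lists, and the Zfp937 window was fully covered at 14 hpa and in the morula as well and at 0 bp in the remaining 5. The linker was found in 270 returning windows (3.74%, 95% interval 3.32 to 4.20), against 0.208% of the cleavage-marked windows, 0.127% of the windows that did not return and 0.0293% of all windows. Cleavage-marked windows are here the other 47599 windows that were marked in CC, ICM and TE and also in at least 1 of the 5 lists that returning windows had to lack. The name is a short label, since 6 hpa and PN5 among these lists are 1-cell stages. Windows that did not return are the 82383 CC windows that were unmarked in those 5 lists and were not marked in both ICM and TE. Intervals are Wilson 95% intervals over windows. They cover counting error, neighbouring windows are not independent, and they do not stand for replicates.

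The coverage that chose the windows is given as a description. In returning windows the mean length under peaks was 877 bp in CC, 877 bp in ICM and 856 bp in TE. It was 107 bp at 6 hpa, 83.999 bp in 2-cell, 104 bp in 4-cell and 114 bp in 8-cell embryos and 41.0 bp in PN5. Of all autosomal windows, peaks marked 8.03% in CC, 5.67% in ICM and 5.25% in TE, and 4.82% at 6 hpa, 4.51% in 2-cell, 5.78% in 4-cell and 5.94% in 8-cell embryos and 4.69% in PN5, values that the choice of windows used and that are given as background alone. The lists outside the choice stood between these levels, with 502.5 bp at 14 hpa and 558 bp in the morula. The median fold enrichment of the peaks, a ratio over input from the peak caller, was 3.02 in CC, 3.61 in ICM and 3.59 in TE. The cleavage-marked windows had 3.20, 4.02 and 3.91. Among returning windows the ranks of fold in ICM and TE were related with a Spearman rho of 0.54, and those in CC and ICM with a rho of 0.23. These correlations run over 7228 windows, many of which share a peak, and are descriptions.

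**Figure D1:**
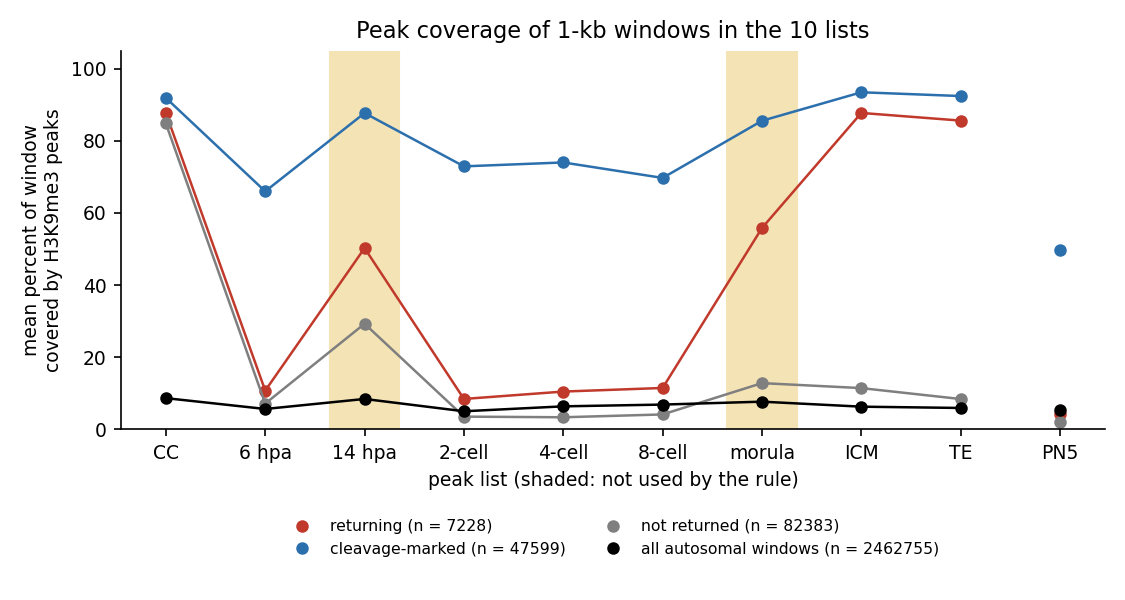
Mean percent of each 1-kb window covered by H3K9me3 peaks (y axis) in the 10 lists (x axis) for returning windows, cleavage-marked windows, windows that did not return and all autosomal windows, 1 point per list with no replicates. In the shaded 14 hpa and morula lists, which the choice did not use, returning windows lie between the other sets marked in CC.

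Many returning windows still held part of a peak in the lists they had to lack. No peak base in any of the 5 lists was seen in 1861 windows (25.7%), while 1827 held some peak in 1 list, 1336 in 2, 993 in 3, 838 in 4 and 373 in all 5. By list, some peak short of the threshold was held by 41.6% at 6 hpa, 32.8% in 2-cell, 40.4% in 4-cell and 43.9% in 8-cell embryos and 16.9% in PN5. At the edge of the threshold, 883 returning windows lay up to 50 bp below it in the most covered of the 5 lists, and 1107 windows missed the choice by lying at it or less than 50 bp above it there. On the other side, 1078 returning windows lay at the threshold or less than 50 bp above it in the least covered of CC, ICM and TE, and 1655 windows missed the choice by up to 50 bp. Full coverage in CC, ICM and TE together with 0 bp in the 5 lists was found in 447 windows.

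At 14 hpa, the later 1-cell time point between the 6 hpa and 2-cell lists, 3587 returning windows were marked, or 49.6% (48.5 to 50.8). Of all autosomal windows 7.9% were marked in that list. The share was 90.6% (90.3 to 90.8) in cleavage-marked windows and 26.5% (26.2 to 26.8) in windows that did not return. Cleavage-marked windows were set apart by marking in the 5 lists, which include those that flank 14 hpa. Of them 68.3% were marked at 6 hpa and 75.6% in 2-cell embryos. A higher share in cleavage-marked windows at 14 hpa and in the morula is thus partly built in by the choice, on each autosome as well. Over the 19 autosomes the share in returning windows was 49.0% ± 4.6 (SD), from 41.2% on chromosome 19 to 59.1% on chromosome 14, and it was below that of the cleavage-marked windows on 19 of 19. In the morula 4049 returning windows were marked, or 56.0% (54.9 to 57.2), where the background was 6.81%. Cleavage-marked windows had 88.8% and windows that did not return had 9.29%. The morula share of returning windows was above their 14 hpa share on 17 of 19 autosomes.

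Each of the possible courses through 14 hpa and the morula was found in over 1000 returning windows. Marks at both 14 hpa and the morula were found in 2222 windows (30.7%), at 14 hpa and not in the morula in 1365 (18.9%), in the morula and not at 14 hpa in 1827 (25.3%) and at neither in 1814 (25.1%). The last share was 2.27% in cleavage-marked windows, which is low partly by the choice, 68.4% in windows that did not return and 89.0% in all autosomal windows. The other courses were taken by 3.73%, 4.17% and 3.08% of all autosomal windows, in the order given. Of the returning windows marked at 14 hpa 61.9% were marked in the morula, against 50.2% of those unmarked at 14 hpa. Median fold in CC was 3.04 in windows marked at 14 hpa and 2.997 in those unmarked.

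Marking in both lists outside the choice was more frequent where the lists that returning windows had to lack held part of a peak. Returning windows with no peak base in the 5 lists were marked at 14 hpa in 31.3% (29.2 to 33.4) and in the morula in 44.0% (41.7 to 46.2). With some peak in all 5 lists the shares were 76.4% (71.8 to 80.4) and 68.9% (64.0 to 73.4). The 14 hpa share was higher at each further list, and the morula share was nearly level between 4 lists (68.9%) and 5.

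**Figure D2:**
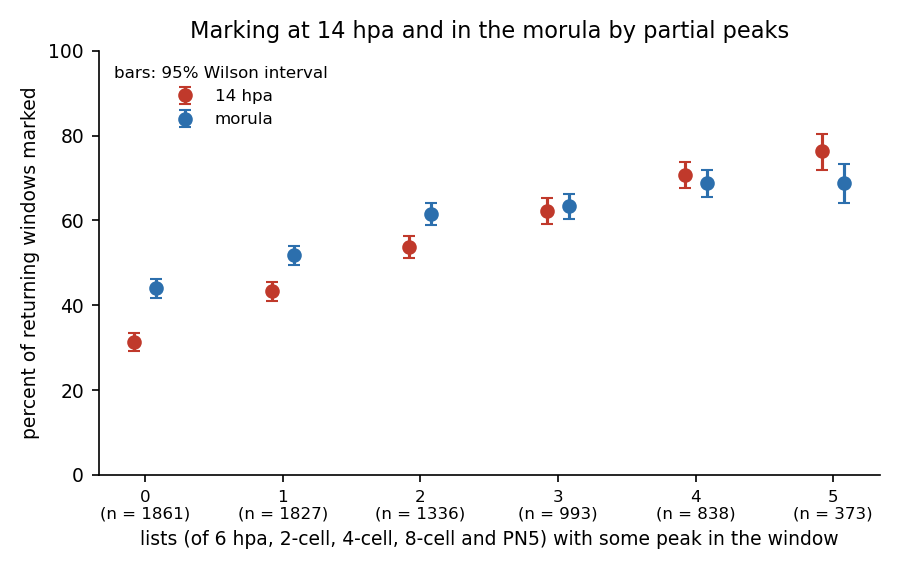
Percent of returning windows marked at 14 hpa and in the morula (y axis) by the number of the 5 lists, out of 6 hpa, 2-cell, 4-cell, 8-cell and PN5, in which the window holds some peak short of the threshold (x axis). Points are shares and bars are Wilson 95% intervals over windows, and the 14 hpa share runs from 31.3% to 76.4%.

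The leading windows of each state, those whose lowest fold in CC, ICM and TE was highest, are shown by their central 200 bases. They lead by fold and not by coverage, and each held part of a peak in lists it had to lack. Capitals mark CpG, the dinucleotide that DNA methylation acts on.
Marked at 14 hpa and in the morula, chr11:121311401-121311600, plus strand: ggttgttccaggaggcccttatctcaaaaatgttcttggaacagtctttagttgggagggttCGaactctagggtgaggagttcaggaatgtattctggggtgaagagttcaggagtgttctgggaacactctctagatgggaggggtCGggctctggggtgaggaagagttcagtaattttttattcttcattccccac
Marked at 14 hpa and not in the morula, chr13:65910401-65910600, plus strand: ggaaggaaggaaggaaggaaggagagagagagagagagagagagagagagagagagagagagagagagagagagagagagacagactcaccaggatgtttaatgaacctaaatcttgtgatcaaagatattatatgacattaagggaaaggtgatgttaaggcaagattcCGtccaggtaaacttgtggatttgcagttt
Marked in the morula and not at 14 hpa, chr10:108597401-108597600, plus strand: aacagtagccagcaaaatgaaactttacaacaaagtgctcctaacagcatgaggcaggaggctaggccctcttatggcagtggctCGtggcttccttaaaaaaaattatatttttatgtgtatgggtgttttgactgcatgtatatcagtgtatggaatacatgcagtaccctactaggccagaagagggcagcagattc
Marked at neither, chr13:111727401-111727600, plus strand: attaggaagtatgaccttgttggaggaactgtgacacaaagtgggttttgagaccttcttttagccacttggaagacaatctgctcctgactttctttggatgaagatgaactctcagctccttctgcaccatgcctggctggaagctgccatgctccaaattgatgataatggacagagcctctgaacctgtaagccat
The first lies between genes, 1105 bp from Foxk2, a forkhead transcription factor gene. It was fully covered in CC, at 14 hpa, in ICM and in TE and to 84.8% in the morula, with 49.9% at 6 hpa, just under the threshold, and with folds of 4.86 in CC, 5.80 in ICM and 5.74 in TE. The second lies on chromosome 13, 208547 bp from the protein-coding gene model Gm10324, and was covered over 52.8% in CC, 52.1% in ICM and 51.3% in TE, all close to the threshold, and over 100% at 14 hpa and 39.5% in the morula. It also had 34.6% at 6 hpa, 38.6% in 2-cell, 36% in 4-cell and 42.9% in 8-cell embryos, so its coverage changed little across the threshold. The third lies in an intron of Syt1, which encodes the calcium sensor of synaptic vesicle release, with 56.9% in CC, 0% at 14 hpa, 71.5% in morulae, 68.8% in ICM and 54.9% in TE. Part of a peak was held there at 6 hpa (35.4%) and in 2-cell (25.6%), 4-cell (22.2%) and 8-cell (28.8%) embryos. The fourth lies in an intron of the antisense RNA gene Gm15287, with 62.9% in CC, 46.4% at 14 hpa, 0% in morulae, 53.3% in ICM and 57.1% in TE.

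Other windows among the leading ones lay in named genes. In an intron of Kmt2a, a histone H3 lysine 4 methyltransferase gene, chr9:44861001-44862000 was covered over 77.9% in CC, 100% in each of morulae, ICM and TE, 49.6% at 6 hpa and 0% at 14 hpa. An intron window of Parn, a poly(A)-specific ribonuclease gene, had 52.7% in CC, 0% at 14 hpa, 76.3% in morulae, 81.2% in ICM and 71.7% in TE, with folds of 4.51, 4.51 and 5.91 in CC, ICM and TE. In an exon of Zfp810, chr9:22280001-22281000 had full coverage in CC, 14 hpa, morula and TE and 85.3% in ICM, with between 26.7% and 28.0% at 6 hpa and in the 4-cell and 8-cell lists. In introns of Desi2, 3 leading windows had the same folds of 4.36 in CC, 5.62 in ICM and 5.12 in TE, and they are not independent of each other.

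Returning windows were poor in GC. Their median GC was 39.5% (quartiles 37.6 and 42.6), against 46.2% in cleavage-marked windows, 39.4% in windows that did not return and 41.7% in all autosomal windows. GC was below 40% in 54.2% (53.0 to 55.3) of returning windows, in 54.9% of windows that did not return and in 38.2% of all windows. Low GC was thus not particular to the returning windows. In cleavage-marked windows the share was 7.70% (7.46 to 7.94), a difference from returning windows seen on 19 of 19 autosomes. The share of CC, ICM and TE windows that were returning windows was accordingly 71.8% below 36% GC and 1.05% at 50% GC or above. Returning windows held a median of 7 CpG per window, with an observed-to-expected ratio of 0.18, against 15 and 0.29 in cleavage-marked windows. Soft-masked sequence, which the assembly writes in lower case as repetitive, made up a median of 85.7% of a returning window, 88.2% of a cleavage-marked window, 60.4% of a window that did not return and 24.9% of all windows.

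At equal GC returning windows were likewise marked less often at 14 hpa than cleavage-marked windows, a gap that the choice partly builds in at any GC. Between 38% and 40% GC the shares were 57.4% and 82.0%, and between 45% and 50% GC they were 44.4% and 93.0%. The 14 hpa share of returning windows showed no steady course with GC, lying between 39.5% below 36% GC and 57.4% at 38% to 40%. In the morula it lay between 50.2% and 58.2% up to 50% GC and was 41.4% in the 99 windows above that.

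**Figure D3:**
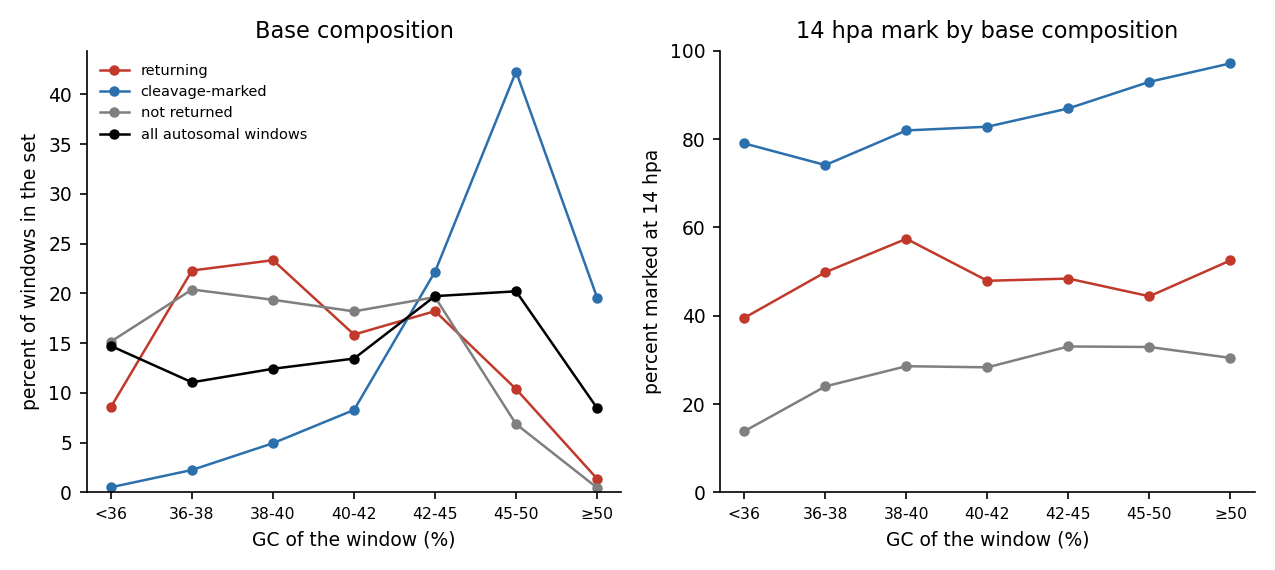
Left, percent of the windows of each set (y axis) in 7 classes of GC (x axis). Right, percent marked at 14 hpa (y axis) in the same classes for returning, cleavage-marked and not returned windows, where returning windows lie between the other sets in every class shown.

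Repeat-bearing windows numbered 2425 among the returning windows, or 33.6% (32.5 to 34.6), against 11.4% of cleavage-marked windows, 7.34% of windows that did not return and 1.78% of all windows. The share in returning windows ranged from 20.1% on chromosome 12 to 46.5% on chromosome 3 and was above that of cleavage-marked windows on 19 of 19 autosomes. Since the 14-base sequences were drawn from the returning windows themselves, these shares describe the set. Repeat-bearing returning windows were soft-masked over a median of 100% and had a median GC of 38.4%. They were marked at 14 hpa in 61.9% (59.9 to 63.8) and in the morula in 67.8% (65.9 to 69.6), compared with 43.4% (42.04 to 44.8) and 50.1% (48.7 to 51.5) of the returning windows without the repeat. Cleavage-marked windows, set apart by marking in neighbouring lists, had higher shares in both classes, with 89.5% at 14 hpa with the repeat and 90.7% without it. Windows that did not return had 37.0% at 14 hpa with the repeat and 25.7% without it, and 26.3% and 7.95% in the morula. A higher share with the repeat was thus not particular to the returning windows. Of the 43904 repeat-bearing windows of the autosomes, 5.52% were returning windows, and 30.9% of those marked in CC, ICM and TE were, against 10.2% without the repeat. How reads that fit several copies were placed is not given in the sources used here, so coverage of single copies of the repeat is uncertain.

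The 14-base sequences that define the repeat were drawn from returning windows, and the linker was chosen after values were seen, so the levels below in the 8 lists behind the choice are partly fixed by it and are given as a description. Over all 43904 repeat-bearing windows, returning or not, the share marked was 36.01% in CC, 45.9% in ICM and 37.6% in TE. It was 9.20% at 6 hpa and 38.5% at 14 hpa, then 12.01% in 2-cell, 14.9% in 4-cell and 13.95% in 8-cell embryos and 38.04% in morulae, with 6.83% in PN5. The 14 hpa and morula values were near that of CC. Of the 701 autosomal windows with the zinc finger linker, 68.6% (65.1 to 71.9) were marked in CC, 62.1% (58.4 to 65.6) in ICM and 59.1% in TE. The share was 4.99% at 6 hpa and 25.2% at 14 hpa, then 5.71% in 2-cell, 6.85% in 4-cell and 12.1% in 8-cell embryos and 43.8% (40.2 to 47.5) in morulae, with 2.57% in PN5. In all autosomal windows these shares lay between 4.51% and 8.03%. Of the 701 windows 270, or 38.5%, were returning windows and thus unmarked in the 5 lists by choice, and of those marked in CC, ICM and TE the share was 73.2%. Linker windows are poor in GC, with a median of 36.5% in returning and 38.5% in cleavage-marked ones. Over all CC, ICM and TE windows, 60.1% were returning windows at 36% to 38% GC and 41.8% at 38% to 40%. The part of GC in the 73.2% was not tested.

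**Figure D4:**
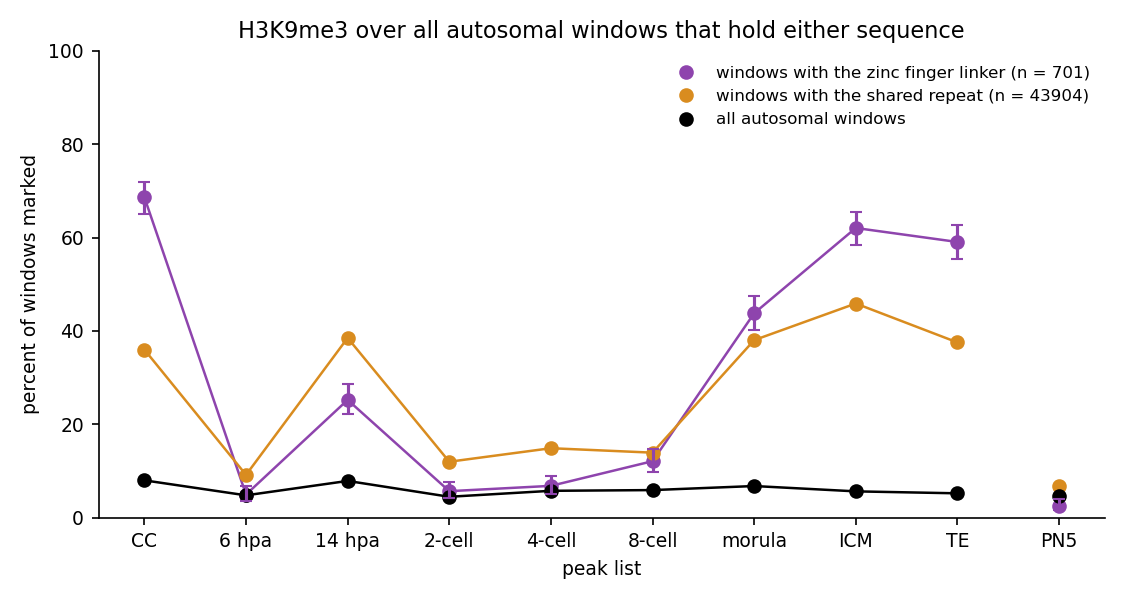
Percent of windows marked (y axis) in the 10 lists (x axis) over all autosomal windows that hold the zinc finger linker, over all repeat-bearing windows and over all autosomal windows. Bars on the linker windows are Wilson 95% intervals, and their share is 68.6% in CC, 4.99% at 6 hpa and 62.1% in ICM.

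Linker-bearing returning windows differed from the repeat-bearing ones at 14 hpa and were level with them in the morula. The repeat-bearing ones had 61.9% at 14 hpa and 67.8% in the morula. Linker-bearing ones were marked at 14 hpa in 29.3% (24.2 to 34.9) and in the morula in 67.8% (62.0 to 73.1), while the returning windows without the linker had 50.4% (49.2 to 51.6) and 55.6% (54.4 to 56.7). A low 14 hpa share with the linker was not particular to returning windows. Cleavage-marked windows with the linker had 66.7% (56.9 to 75.2) at 14 hpa, against 90.6% of that set. Windows that did not return had 20% (13.5 to 28.6) with it, against 26.5% of that set. In the morula these linker windows had 94.9% and 13.3%, against 88.8% and 9.29%. No peak base in any of the 5 lists was seen in 58.1% of the linker-bearing returning windows, against 24.5% of the rest. Their median fold in CC was 3.35, compared with 3.01 in the rest, their median GC was 36.5% and they were soft-masked over a median of 55.2%. By place, 64 of the 270 touched an exon of a gene named Zfp, 42 an exon of another protein-coding gene, 41 a pseudogene and 25 a long noncoding gene, 8 lay in introns and 90 lay elsewhere.

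Protein-coding genes held at least 500 bp of 1796 returning windows, or 24.8% (23.9 to 25.9), compared with 19.6% of cleavage-marked windows, 20.97% of windows that did not return and 41.4% of all windows. A protein-coding exon was touched by 473 returning windows, 6.54% (6.00 to 7.14), against 2.55% (2.41 to 2.70), 3.92% (3.79 to 4.05) and 10.6% in the same order. Of 20807 protein-coding autosomal genes, 1183 held at least 1 returning window, or 5.69%, and 808 of these held 1. The median distance of a returning window to the nearest protein-coding start was 71644.5 bp, and that of all windows was 72535 bp. Outside exons the 14 hpa share was 42.7% for the 1370 windows in introns and 53.1% for the 4724 windows outside protein-coding genes, pseudogenes and long noncoding genes.

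Genes named Zfp, most of which encode C2H2 zinc finger proteins and many of them KRAB repressors, held returning windows in 120 of 385 cases, or 31.2%, beside the 5.69% of all protein-coding genes. Their bodies held 300 returning windows, 4.15% (3.71 to 4.64) of the set, compared with 0.918% of cleavage-marked and 0.777% of not returned windows. In the same bodies 40.7% of the windows marked in CC, ICM and TE were returning windows, where 13.2% were over all autosomes. These shares were not matched for GC. The last exon, in which the fingers of these proteins are usually encoded, was touched by 166 returning windows. These were marked at 14 hpa in 32.5% and in the morula in 51.2%, and 33.7% held the linker. Over the 1425 windows that touch a last exon of a Zfp gene, the marked share was 31.02% in CC, 31.8% in ICM and 33.8% in TE. It was 11.4% at 6 hpa, 17.6% at 14 hpa, 9.12% in 2-cell, 9.47% in 4-cell and 10.5% in 8-cell embryos, 20.8% in morulae and 8.84% in PN5. Sorted by sequence and not by name, 91 of the 176 protein-coding genes with the linker in an exon held a returning window, or 51.7% (44.4 to 59.0), against 5.29% of those without it. Among the 55 of these genes that are not named Zfp it was 32.

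The 20 genes with the most returning windows held 158 of them, counted once where gene models overlap. The linker was found in exons of 11 of the 20, and 4 are named Zfp. A630089N07Rik on chromosome 16 led with 16 returning windows among the 81 windows of its body, 7 of them touching an exon, 5 marked at 14 hpa and 8 in the morula. Its exons held 11 linkers. Across the body 53.1% of the windows were marked in CC, 43.2% in ICM and 48.1% in TE, with 7.41% at 6 hpa, 23.5% at 14 hpa, 11.1% in 2-cell embryos and 27.2% in morulae. The returning windows in chr16:98065001-98071000 were at 0 bp at 6 hpa and 14 hpa and in PN5, and the first 2 of these 6, which hold the linker, were fully covered in the morula. These 2 already had 225 and 399 bp in 8-cell embryos, and the first had 29 bp in 4-cell embryos. The median fold over the 16 windows was 3.05 in CC, 4.03 in ICM and 3.85 in TE.

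Zfp936 on chromosome 7 held 12 returning windows among 78, 3 of them in exons. Its body was marked nearly throughout in CC, with 97.4% of windows, and in 43.6% in ICM and 41.03% in TE, with 37.2% at 6 hpa, 79.5% at 14 hpa, 23.1% in 2-cell and 14.1% in 8-cell embryos and 25.6% in morulae. Of its returning windows 7 were marked at 14 hpa and 6 in the morula. Zfp808 on chromosome 13, with 8 returning windows of 106, had 59.4% of its windows marked in CC and 13.2% in each of ICM and TE, and 1.89% in 2-cell embryos. Its 2 returning windows with the linker were fully covered in CC, ICM and TE, and at 14 hpa the first had 6 bp and the second 1000 bp. Zfp942 on chromosome 17 held 7, of which none was marked at 14 hpa and 2 in the morula. No window of its body was marked at 6 hpa, 14 hpa, the 2-cell, 4-cell or 8-cell stage or in PN5, against 42.9% in CC and 31.4% in each of ICM and TE. In 5430403G16Rik on chromosome 5, 8 of 16 windows were returning windows. They were fully covered in ICM and TE, had 0 bp in each of the 5 lists that returning windows had to lack, and 3 of them were marked at 14 hpa.

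Further models with the linker in exons were D130040H23Rik on chromosome 8 with 11 returning windows, 5 of them marked at 14 hpa and 1 in the morula, and Gm3604, Gm32687, Gm49345 and Gm4924 with 7 each. The models 9030624G23Rik and Gm45844 held 7 each and no linker in an exon. Zfp951 on chromosome 5 held 6. The models Gm37388, Gm37013 and Gm42416, which overlap over most of the clustered protocadherin locus on chromosome 18, shared 15 returning windows among 857 to 887, of which 11 were marked at 14 hpa and 10 in the morula.

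Genes of at least 300 kb made up 7 of the 20, and none of their returning windows touched an exon of the gene itself. The 8 windows of Kcnq1, which is among these genes, do touch an exon of the antisense noncoding gene Kcnq1ot1. Pde4d, which encodes a cAMP-degrading phosphodiesterase, held 9 among 1503 windows, Gpc5, a heparan sulfate proteoglycan gene, 8 among 1433, and Fhit, which spans a common fragile site in human, 8 among 1612. Pde4d had 7 of 9 marked at 14 hpa and 5 in the morula, Gpc5 had 5 and 4 of 8, and Fhit had 7 and 5 of 8. The repeat was present in 4 of the 9 in Pde4d, 5 of the 8 in Gpc5 and 5 of the 8 in Fhit. In a separate list of 61 neural adhesion and synaptic genes, 0.130% of the body windows were returning windows, against 0.181% for all protein-coding genes. In that list 35 of 61 genes held at least 1 (57.4%, against 5.69% of all protein-coding genes), led by Cdh18, Ctnna3, Macrod2 and Pcdh15 with 5 each, and 42 of its 76 returning windows carried the repeat.

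The imprinted gene Kcnq1, which encodes a potassium channel, held 8 returning windows in chr7:143219001-143238000. The same 8 windows lie in Kcnq1ot1, the antisense noncoding RNA that silences neighbouring genes on the paternal allele. All were fully covered in CC, 2 were marked at 14 hpa and 1 in the morula, and 4 had 0 bp in each of the 5 lists. Median fold was 3.28 in CC, 3.50 in ICM and 3.54 in TE. In Kcnq1ot1 the marked share of windows was 22.3% in CC, 21.3% in ICM and 20.2% in TE, with 4.26% at 6 hpa, 6.38% at 14 hpa, 2.13% in 8-cell embryos and 6.38% in morulae. Of the 53 imprinted genes 5 held a returning window, or 9.43%, against 5.69% of all protein-coding genes, and Kcnq1 and Kcnq1ot1 count as 2 of the 5 through the same windows. Grb10 and Impact held 1 each.

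The counts in the remaining lists were read against the 5.69% of all protein-coding genes that held a returning window, a share at which a count of 0 or 1 in lists of 13 to 26 genes is near the background. None of the 23 cumulus and granulosa cell genes, of the 23 genes for writers, readers and erasers of H3K9 methylation or of the 13 minor genome activation genes that the study named held a returning window. Of the last group, 84.1% of the body windows were marked in CC and 4.35% in both ICM and TE. Among 23 pluripotency and trophectoderm regulators 1 held any, Fgfr2, with 3 in a gene model annotated over 2961 kb. Returning windows were found in 8 of 1128 olfactory receptor genes, 3 of 208 vomeronasal type 1 and 22 of 119 vomeronasal type 2 receptor genes. Of their body windows 0.160%, 0.261% and 0.738% were returning windows, against 0.181% for all protein-coding genes. A low count of genes in the first 2 families thus does not show fewer returning windows per length. CC marked 8.34%, 39.2% and 39.4% of the body windows of these receptor families, and ICM and TE together 1.22%, 2.80% and 4.89%. There were further 15 of 100 cytochrome P450 genes (led by Cyp2b9, Cyp2c66, Cyp2j8 and Cyp4a12a with 2 each), 31 of 57 clustered protocadherin genes (54.4%), whose overlapping models share 7 windows or 1.32% of the body windows of the list, 7 of 22 UDP glucuronosyltransferase genes, which share 2, 5 of 11 Skint genes (Skint11 with 2) and 1 of 60 serpin genes (Serpinb3b). None of 26 NK cell lectin-like receptor genes and 64 defensin genes held any.

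A protein-coding start lay in 13 returning windows, or 0.180% (0.105 to 0.307), against 0.825% of all windows. Ordered by the lowest of the CC, ICM and TE folds, the first was Mbd1, a gene for a methyl-CpG binding protein, whose start window was covered over 79.7% in CC, 43.0% at 14 hpa, 56.4% in morulae, 74.4% in ICM, 79.3% in TE and 0% in each of the 5 lists, with folds of 4.31, 5.76 and 5.27 in CC, ICM and TE. Actr10, which encodes a dynactin subunit, followed with 50.6% in CC, 38.1% at 14 hpa, 35.6% in morulae, 74.6% in ICM and 85.2% in TE. At Catsperg1, a gene for a subunit of the sperm calcium channel, the start window had 62.8% in CC, 100% in ICM and TE and 0% in the other 7 lists. Fam208b had 59.7% in CC, 63.8% in ICM and 87.0% in TE and likewise 0% in the other 7. The other 9 were the models Gm10330, Gm10324, Gm10772, Gm17332, Gm21028, Gm6020, Gm10382, Gm4969 and Gm21060, of which Gm10330 and Gm10772 were fully covered in CC, ICM, TE and at 14 hpa.

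Most returning windows stood alone. The 7228 windows formed 6311 runs of adjacent windows, and 5656 of these were single. Runs of 3 or more numbered 149 and held 560 windows, and the longest were 8 windows. The centre of the leading run is shown because these 8 kb returned as a block. Capitals again mark CpG.
Centre of the leading run, chr12:19406901-19407100, plus strand: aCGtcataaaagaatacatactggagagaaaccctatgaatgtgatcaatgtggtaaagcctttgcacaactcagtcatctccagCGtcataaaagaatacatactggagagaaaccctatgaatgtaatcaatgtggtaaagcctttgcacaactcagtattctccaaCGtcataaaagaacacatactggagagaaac
This run, chr12:19403001-19411000, touches exons of the long noncoding genes Gm29737 and Gm5784, holds the zinc finger linker in the stretch printed (here in lower case) and was covered over 100% in CC, 13.2% at 14 hpa, 68.8% in morulae, 97.6% in ICM and 100% in TE, with 5.48% at 6 hpa and 0% in PN5. The run at chr12:22722001-22730000, in the pseudogene Gm48035, had 100% in CC, 5.40% at 14 hpa, 45.3% in morulae, 91.1% in ICM and 100% in TE. The third run of 8 windows, chr13:61857001-61865000 in the pseudogene Gm7240, had 97.9%, 12.2%, 57.3%, 100% and 100% in the same lists. In each of these runs, then, coverage was higher in the morula than at 14 hpa. Of the next 7 runs, all of 6 or 7 windows, chr5:109675001-109681000 lies in 5430403G16Rik and had 34.6% at 14 hpa and 32.4% in the morula, and chr7:41542001-41548000 in Gm6871 had 49.4% and 25.7%. The run chr12:24069001-24076000 in 9030624G23Rik had 7.80% and 59.1%. Mean GC of the 10 runs lay between 35.1% and 38.5%, and none was repeat-bearing, since no window in them held more than 2 of the shared 14-base sequences.

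Returning windows were dispersed over 1932 of 2473 bins of 1 Mb, with a median of 2 per bin, and the leading 10 bins held 522, or 7.22%. Chromosome 13 from 66 to 67 Mb held 78, which was 30.7% of its windows marked in CC, ICM and TE, and none of the 78 was repeat-bearing. The bin from 62 to 63 Mb, with Zfp808, Zfp934 and Zfp935, held 55 (42.3%). Chromosome 12 supplied 5 of the 10 bins, between 18 and 24 Mb, with 39 to 61 each. Their 14 hpa shares were low in several, with 15.4% from 22 to 23 Mb and 26.2% from 19 to 20 Mb, while 40.4% and 57.4% were marked in the morula. The 1-Mb bin that starts at 104 Mb of chromosome 5, with Zfp951, held 40, or 45.5% of its CC, ICM and TE windows. By chromosome, the share of CC, ICM and TE windows that were returning windows was 13.0% ± 2.3 (SD over 19 autosomes) and was highest on chromosomes 12 (17.97%), 13 (17.7%) and 10 (17.0%).

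Beyond the windows themselves, marks fell off within a few kilobases. Values close to a returning window in the lists that the choice used are partly built in, since a peak can span several windows. They are given as a description. At 1 kb on either side of a returning window, CC marked 57.8% and 58.0% of windows, ICM 54.4% and 54.7% and TE 49.5% and 49.7%. The morula list had 38.5% and 38.9%, 14 hpa had 42.3% and 43.2%, and 6 hpa had 19.1% on both sides. At 20 kb CC still marked 25.4% and 24.6% and 14 hpa 19.2% and 19.4%, against 8.03% and 7.9% of all windows, while ICM had 11.5% and 11.3% and PN5 5.78% and 6.25%. A window marked in at least 1 of the 5 lists lay within 5 kb of 82.9% of returning windows, compared with 78.4% of windows that did not return and 47.8% of all windows. By list this was 64.8% for 6 hpa, 54.8% for the 2-cell, 57.6% for the 4-cell and 57.5% for the 8-cell stage, and 37.96% for PN5.

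**Figure D5:**
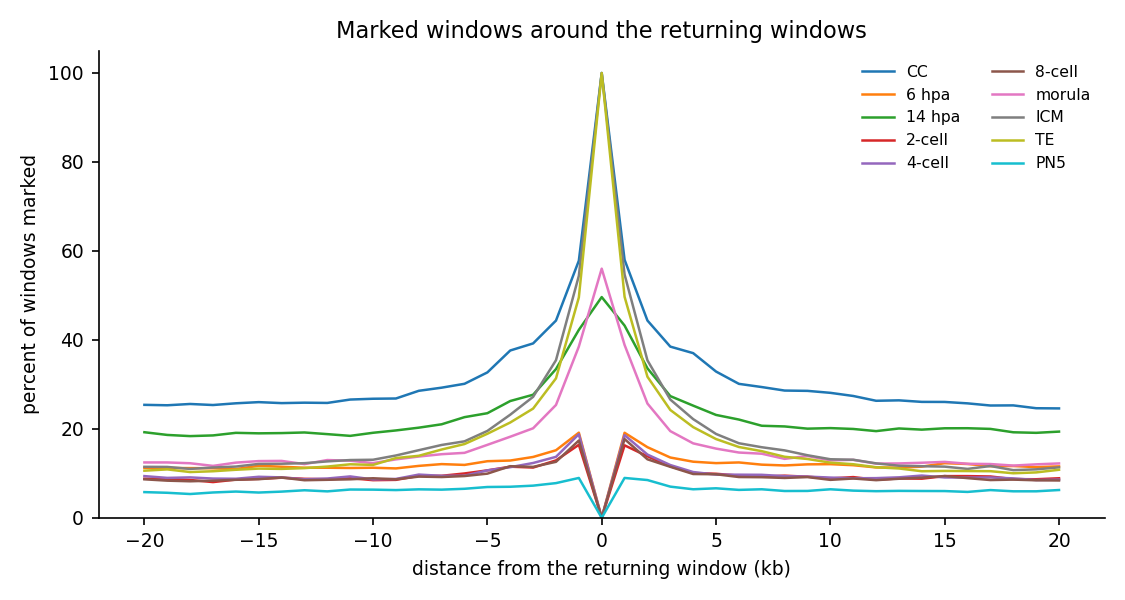
Percent of windows marked (y axis) in each of the 10 lists by distance in kb from the 7228 returning windows (x axis). At distance 0 the values of CC, ICM, TE, 6 hpa, 2-cell, 4-cell, 8-cell and PN5 are fixed by the choice. Values of these lists close by are partly built in, and at -1 kb CC stands at 57.8% and PN5 at 8.97%.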

How the data were processed

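H3K9me3 was measured by ULI-NChIP-seq. Per the study, the authors trimmed reads with cutadapt (1.16 by the submitters' processing notes), aligned them to mm10 with BWA mem, merged the libraries of a group, removed duplicates, drew equal read numbers and called broad peaks over input with MACS2, whose threshold is not given in the sources used here. The deposited lists give each peak a fold enrichment, which is a ratio over input, and −log10 p and q values, of which the q values were used in an alternative alone. No read counts are in the lists, so depth per library is unknown. The lists have 1 entry per group, and groups were taken from the labels.

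Bases under peaks were counted in 1-kb windows from position 0 of the 19 autosomes, and the fold of a window is that of the peak with most bases in it. Sequence was GRCm38.p6, which is mm10, genes were GENCODE M21, and coordinates are 1-based. Some values of all windows used the 2395928 windows with at least 500 assembled bases. These are GC, CpG, soft-masking, motifs, distance to a start and the shares in protein-coding bodies, exons and starts. The other sets lost no window by this limit. Python 3.11.15 with numpy 2.4.6, scipy 1.17.1 and pysam 0.24.0 was used, and the window counting and run finding were tested on simulated peaks. A window counted for a gene when at least 500 bp lay in its body. Genes were named as the 20 with most returning windows, those starting in one, and up to 4 per list from 17 gene lists, and windows as the 10 longest runs and the 5 of highest lowest fold in each 14 hpa and morula state. The sequences printed from the repeat and from Zfp exons, the 14-base definition, the linker and the 1-Mb bins were chosen after values were seen. The linker was read from the annotated exons, where it ranked 2 by occurrences (312, against 329 for the most frequent 14-base sequence). The windows and gene lists were chosen with earlier results of these data known. X was outside the choice.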

Additional observations from a re-analysis of the deposited data

How the results depend on the processing

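The 7228 windows were recounted under 7 alternatives. Counts stayed within 1.5 times under 6 of them, from 5079 (lists trimmed to the covered length of the shortest list by highest −log10 q) to 9859 (250 bp as threshold), and fell to 1861 with 0 bp required in the 5 lists. The share marked at 14 hpa was 44.8% at 250 bp, 51.4% at 750 bp, 36.6% with trimmed lists, 31.3% with 0 bp required and 51.8% without PN5 in the choice. The morula share was 58.3%, 54.2%, 48.3% and 44.0% under the first 4 of these. The share below 40% GC was 59.0% at 250 bp, 46.7% at 750 bp, 50% when peaks under 2 on the −log10 q scale were dropped, 69.8% with 0 bp required and 52.2% without PN5. The share in protein-coding genes was 27.5% at 250 bp, 23.3% at 750 bp, 27.0% with trimmed lists and 31.3% with 0 bp required. The cause was not tested. Under all 7 alternatives the 14 hpa and morula shares stayed below those of the cleavage-marked windows (86.5% to 91.4% and 85.9% to 90.2%) and the share below 40% GC above theirs (5.18% to 12.3%). Each alternative set the cleavage-marked windows apart by the lists that returning windows had to lack. The order of the 14 hpa and morula shares was thus partly built in each time and does not show robustness. Windows that did not return were not recounted. At 250 bp 50.4% of the 7228 windows were kept, at 750 bp 47.9% and with trimmed lists 62.5%. No paired analysis was possible because each list came from pooled replicates, and for the same reason none could be left out in turn. Depth per library and the signal over background behind each list are unknown, and an unmarked window may lie under the threshold of its list.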

Other observations

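The X chromosome lay outside the choice of windows. There, 1572 of the 8478 windows marked in CC, ICM and TE were unmarked in the 5 lists, or 18.5%, against 13.2% on the autosomes and a highest autosomal share of 17.97% on chromosome 12. Other motifs searched on both strands occurred in returning windows at the following shares. The YY1 motif AANATGGC was found in 18.8% of returning windows, 28.7% of cleavage-marked windows and 20.5% of all windows. The core CTCF motif was found in 5.81%, 5.30% and 5.31%, and a run of CA repeats in 4.14%, 3.43% and 10.8%. The telomere repeat was found in 6 returning windows, or 0.0830% (0.0380 to 0.181), an interval that held the 0.0498% of all windows.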
